A study of Mus musculus with 12 samples.

Results

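Mouse CD4+ T cells cultured toward the Th1 fate were compared with CD4+ T cells cultured toward the Th17 fate by sequencing of poly(A) RNA. The comparison used the 8 libraries whose labels give Th1 (4 libraries) or Th17 (4 libraries), out of 12 in all. The other 4 were Th2 cultures. Each group of 4 held 1 wild-type (WT) library and 1 NFATc1/ΔS library at each of day 2.5 and day 3.5. NFATc1/ΔS mice carry, on the C57BL/6 background, an NFATc1 transcription factor that cannot be joined to the small protein SUMO. All cells came from spleen and lymph nodes and were stimulated on plates through CD3, with 1 µg/ml of antibody to CD28 and 5% fetal calf serum. Th1 cultures were kept in RPMI with 0.5 µg/ml anti-CD3, 10 ng/ml IL-12 and 2.5 µg/ml anti-IL-4. Th17 cultures were kept in IMDM with 0.25 µg/ml anti-CD3, 0.5 ng/ml TGFβ, 20 ng/ml IL-6 and 2.5 µg/ml each of anti-IFNγ and anti-IL-4. Culture medium and anti-CD3 dose therefore differed together with the polarising cytokines, and the 3 cannot be told apart in any difference given here. Th2 cultures shared medium and anti-CD3 dose with Th1 and held 50 ng/ml IL-4 and 2.5 µg/ml anti-IFNγ, without anti-IL-4. They are quoted where they bear on a value.

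Th1 cells are known for making interferon-γ, which activates macrophages and other cells against intracellular microbes. IL-12 acts through STAT4, and T-bet, the product of Tbx21, then directs the programme. Th17 cells arise under TGFβ and IL-6 through STAT3. They make IL-17A and IL-17F, which recruit neutrophils at mucosal surfaces, and carry CCR6, the receptor for the chemokine CCL20.

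The 8 libraries held 13417121 to 17774400 gene reads each, of which 79.44 to 81.37% mapped uniquely. There was 1 library for each combination, so the error is the spread of the 4 differences between a Th1 library and the Th17 library of the same genotype and day. Nothing in the labels ties a library to its own animal or culture, and the p-values cover no more than the spread among these 8 libraries. Values of 4 libraries are given in the order WT day 2.5, WT day 3.5, NFATc1/ΔS day 2.5 and NFATc1/ΔS day 3.5, as CPM (reads on a gene scaled to the size of its library). Fold changes are log2, Th1 minus Th17, ± standard error. Gene-level counts cannot show altered SUMO sites, and the level of Nfatc1 therefore checks no genotype label. It was 270.3, 184, 237 and 178 CPM in Th1 and 149.2, 228.4, 169.2 and 253 CPM in Th17.

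The 3 markers that define the comparison went with the labels in every library. Tbx21 (ENSMUSG00000001444, GRCm38 chromosome 11, 97098071 to 97115331) had 44.9, 34.7, 66.5 and 37.6 CPM in Th1 and 4, 2.5, 3.9 and 4.2 CPM in Th17. Fasl, the ligand that triggers death through FAS (ENSMUSG00000000817, chromosome 1, 161780689 to 161788495), had 23.5, 17.2, 17.3 and 16.3 CPM in Th1 and 5.2, 3.4, 4 and 4.9 CPM in Th17. Ccr6 (ENSMUSG00000040899, chromosome 17, 8236043 to 8257141) had 2.2, 1.6, 4.4 and 1.5 CPM in Th1 and 28.2, 28.9, 20.4 and 19.3 CPM in Th17. The groups overlapped for none of the 3. Th2 libraries lay at 2.1 to 2.6 CPM for Tbx21, 1.1 to 1.7 CPM for Fasl and 0.4 to 1.2 CPM for Ccr6.

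Several Th1 libraries stood apart over all genes in ways that the labels do not give. The library labelled Th1 WT day 2.5 correlated with the 4 Th17 libraries at 0.962 to 0.977 (across genes, log2 CPM, which are not independent) and with the other Th1 libraries at 0.952 to 0.955. Its Tbx21 and Fasl were nonetheless at the Th1 level, as given above. The library labelled Th1 NFATc1/ΔS day 2.5 lay more than 2-fold below all other 7 in 577 genes and above them in 251, while no other library did so in more than 22 genes below and 16 above. Against its Th17 partner, 27.3% of 12385 genes differed over 2-fold, and in the other 3 pairs 9.66 to 10.6% did. The 2 Th1 libraries of day 3.5 (r = 0.992) were at least 10-fold apart from all other 10 libraries in 88 genes, 70 high and 18 low, and of the other pairs that can be formed among 12 libraries none shared more than 1 such gene. The 88 lay on 20 chromosomes. Cfap77, a component of the ciliary axoneme, had 614.8 and 593.9 CPM in those 2 libraries and 0.4 to 2.1 CPM in the other 10. Vill, which encodes a villin-like protein, had 0 and 0 CPM there and 7 to 22 CPM elsewhere. The labels give the same background for all libraries, and the cause of these gaps was not tested.

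**Figure D1:**
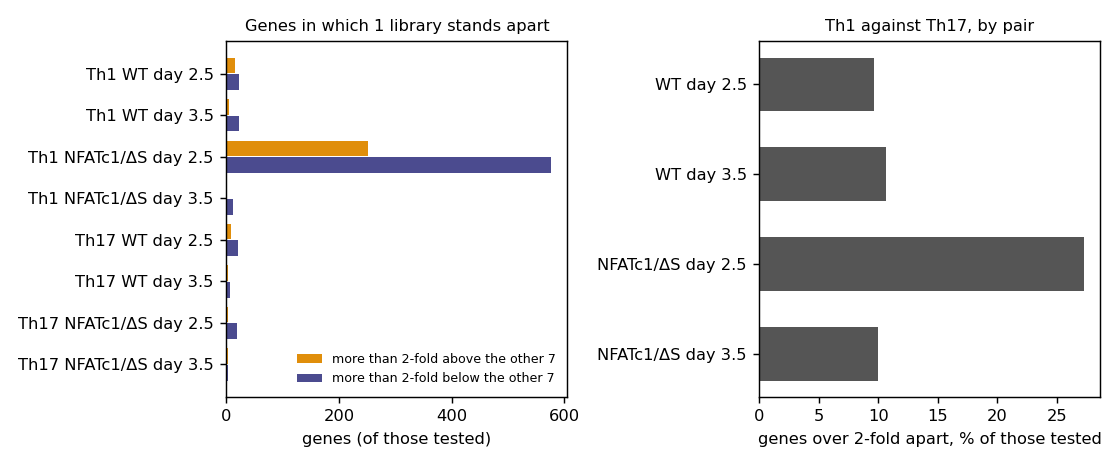
Left, number of genes in which each of the 8 libraries lies more than 2-fold above (orange) or below (blue) all other 7. Right, percent of 12385 genes that differ over 2-fold between Th1 and Th17 in each pair of libraries. Th1 NFATc1/ΔS day 2.5 stands out at 577 genes below and 251 above, and its pair at 27.3%.

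Across all genes, edgeR's quasi-likelihood test with genotype by day as 4 blocks called 12 of 12385 genes at a Benjamini-Hochberg adjusted p under 0.05, which is 0.0969%. Of these, 10 were higher in Th1 (0.0807%) and 2 lower (0.0161%), and 1818 had an unadjusted p under 0.05. Without the WT day 2.5 pair, no gene of 12502 was called (0.0%), with 1272 at an unadjusted p under 0.05 and 0.16 as the smallest adjusted p. On the same 3 pairs DESeq2 called 436 genes and limma-voom 0. When genotype and day were additive terms in place of blocks, 95 genes were called with all 8 libraries and 66 without the Th1 WT day 2.5 library alone. Leaving out a pair costs degrees of freedom as well as that library, and leaving out another pair gave 0 calls (WT day 3.5), 4 (NFATc1/ΔS day 2.5) and 0 (NFATc1/ΔS day 3.5).

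A fit of all 12 libraries, in which the Th2 libraries add to the estimate of spread, called 611 of 12797 genes between Th1 and Th17 (4.77%), 249 higher (1.95%) and 362 lower (2.83%) in Th1. It called 315 of 12903 (2.44%) without the 3 libraries of WT day 2.5 and 364 of 12901 (2.82%) without those of NFATc1/ΔS day 2.5. Fewer calls were left without a day 3.5 block: 56 of 12827 genes (WT) and 69 of 12755 (NFATc1/ΔS). Leaving out any block thus cost calls, and most were lost without a day 3.5 block. Gene groups below are counted in the fit of all 12 libraries, with the counts without each day 2.5 block beside them where they differ. The 8 libraries alone gave few calls in these groups. They called higher 1 of 18 Th1 factors and receptors, 3 of 15 Th1 effectors, 2 of 16 cytotoxic genes and 1 of 38 interferon-γ-induced genes. None was called of 16 Th17 cytokine and receptor genes, 16 Th17 factors or 21 genes of the TGFβ list. In the full 12-library fit the share to read a count against is the 1.95% or 2.83% given above. The fits without a block called fewer of all genes. Without the WT day 2.5 block 88 were higher and 227 lower of 12903. Without the NFATc1/ΔS day 2.5 block 138 were higher and 226 lower of 12901. Measured genes of a group are those with enough reads to be tested in the fit. The genes called without the WT day 2.5 block were then looked up in the pair left out. Of the 88 higher ones, 76 had the same sign in it, with a median difference of 0.88 against a fold change of 1.62 in the other libraries. Of the 227 lower ones, 191 had the same sign, at a median of -0.53 against -1.69. In the WT day 2.5 pair most called genes thus had the direction of the other libraries, at a smaller size. Its shares of the same sign, 86.4% of higher and 84.1% of lower genes, were the lowest of the 4 pairs. The same look-up gave 90.6% and 92.9% for NFATc1/ΔS day 2.5, and 100% for both day 3.5 pairs. For NFATc1/ΔS day 2.5 the medians were 1.05 against 1.03 and -1.34 against -1.06. For WT day 3.5 they were 1.87 against 1.99 and -1.8 against -1.79, and for NFATc1/ΔS day 3.5 1.71 against 2.08 and -1.3 against -1.86. All 4 Th1 libraries lay above all 4 Th17 libraries in 891 genes (7.19%) and below them in 914 (7.38%).

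The genes called in the 8 libraries included Tbx21 at 3.62 ± 0.2 (edgeR adjusted p = 0.0272) and Fasl at 2.07 ± 0.18 (0.0462). With 12 libraries Fasl stood at 2.08 ± 0.15 (adjusted p = 0.000831), and at an adjusted p of 0.0124 without the WT day 2.5 block, where Tbx21 had 0.0094. Ccr6 missed the threshold in 8 libraries at -3.45 ± 0.36 (adjusted p = 0.0573) and passed in 12 at -3.43 ± 0.32 (adjusted p = 0.00194). It kept its call without the WT day 2.5 block (adjusted p = 0.0205). For these 3 genes the library labelled Th1 WT day 2.5 lay on the Th1 side, with the highest Fasl of the 4 Th1 libraries and the next to highest Tbx21 and Ccr6.

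Genes of cytotoxic granules were among the other calls in 8 libraries. Gzmb, the protease granzyme B of cytotoxic granules, had 1960, 688.9, 1763 and 692.6 CPM in Th1 and 143.6, 116.6, 150.9 and 104 CPM in Th17. Prf1, the pore-forming perforin that lets granzymes into target cells, had 83.5, 23.3, 67.7 and 27 CPM in Th1 and 11.8, 6.2, 14.5 and 7 CPM in Th17. Both were highest in the Th1 libraries of day 2.5, and neither overlapped between groups. Gzmb was higher by 3.14 ± 0.26 (edgeR adjusted p = 0.0408) and Prf1 by 2.22 ± 0.2 (0.0471). In the 12-library fit without the WT day 2.5 block Gzmb passed (adjusted p = 0.0311) and Prf1 did not (0.0769). Th2 libraries had 266 to 578.1 CPM of Gzmb, between the other groups.

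Samd3, which encodes a protein with a sterile alpha motif domain, had 10.1, 6.6, 10.7 and 6.4 CPM in Th1 and 0.8, 0.4, 0.5 and 0.7 CPM in Th17 (3.74 ± 0.3, edgeR adjusted p = 0.0405). Bst1, an ectoenzyme that makes cyclic ADP-ribose, had 31.2, 11.8, 13.2 and 15.3 CPM in Th1 and 2.9, 1.8, 1.7 and 1 CPM in Th17 (3.24 ± 0.26, adjusted p = 0.0405). Fgr, a Src family kinase, had 4.3, 3.1, 5.9 and 3.1 CPM in Th1 and 0.4 to 0.7 CPM in Th17 (2.99 ± 0.28, adjusted p = 0.0471). For Bst1 the Th1 WT day 2.5 library was the highest of all.

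The 2 genes called lower in Th1 were Tmtc2 and Ccl22. Tmtc2, an O-mannosyltransferase of the endoplasmic reticulum, had 3.6, 1.1, 1.8 and 0.7 CPM in Th1 and 23.7, 10.4, 13.1 and 7.2 CPM in Th17 (-3.01 ± 0.21, edgeR adjusted p = 0.0299). Ccl22, a chemokine that attracts CCR4-bearing cells, had 0.9, 1, 2.2 and 1.2 CPM in Th1 and 9.1, 8.5, 10.9 and 9 CPM in Th17 (-2.88 ± 0.27, adjusted p = 0.0471). Neither overlapped between the groups. Without the WT day 2.5 block of the 12-library fit Tmtc2 had an adjusted p of 0.0141, Ccl22 0.0496, Samd3 0.013, Bst1 0.0141 and Fgr 0.0124, so all 5 kept the call there. The last call in 8 libraries, Gm10184, had only 5.48% unique reads. It had 259.5 and 237.2 CPM in the Th1 day 3.5 libraries and 0 and 6.7 CPM in the Th1 day 2.5 ones, so it belongs with the genes that set the former apart.

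**Figure D2:**
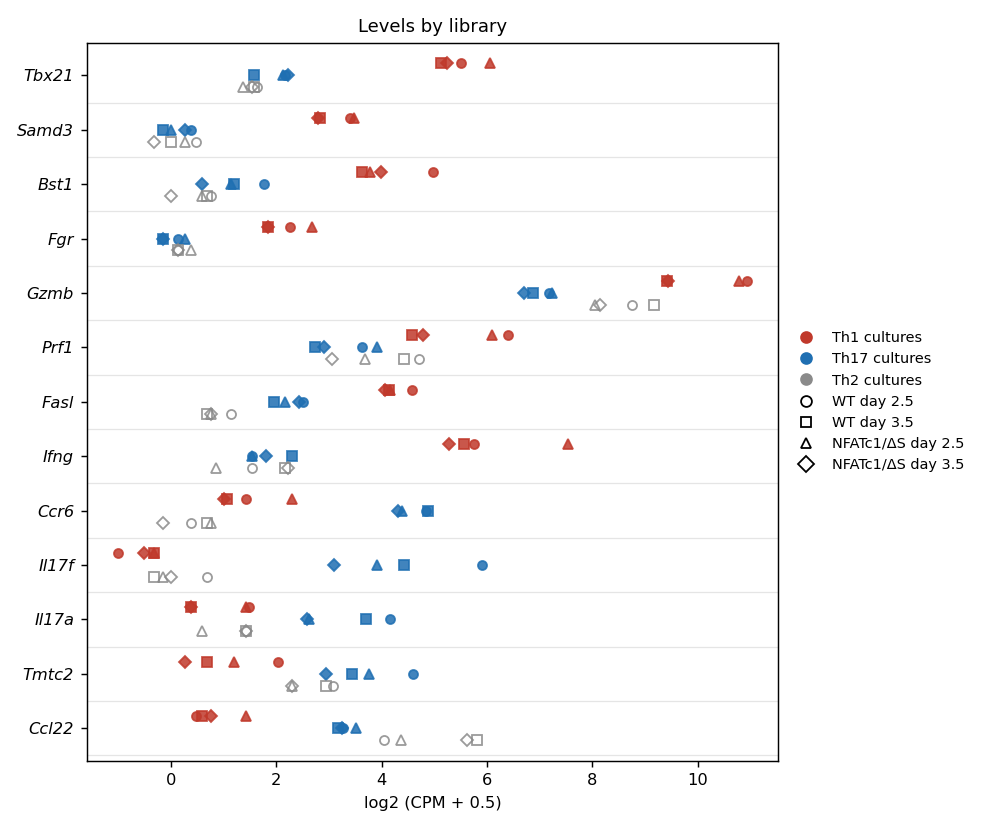
Levels of genes called in 8 libraries and of lineage genes, as log2(CPM + 0.5), 1 point a library, with Th1, Th17 and, in grey open symbols, Th2. Tbx21 lies at 34.7 CPM or above in all 4 Th1 libraries and at 4.2 CPM or below in all 4 Th17 libraries, and Il17f is at 0.3 CPM or below in every Th1 library.

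Of 18 Th1 factors and receptors measured, 6 were higher and 0 lower in Th1 in 12 libraries, 5 higher without the WT day 2.5 block and 4 without the NFATc1/ΔS day 2.5 block. Their median fold change was 0.58, beside 0.03 over all genes tested. Il12rb2, the IL-12 receptor chain that signals through STAT4, had 439.6, 336.2, 253.1 and 386.9 CPM in Th1 and 176.1, 105.8, 121.6 and 82.2 CPM in Th17 (1.6 ± 0.21, edgeR adjusted p = 0.00673). Stat4 itself was higher by a smaller amount, 0.58 ± 0.13 (adjusted p = 0.0421, with 0.0385 without the WT day 2.5 block and 0.114 without the NFATc1/ΔS day 2.5 block, where it lost its call). Irf1, a factor induced by interferons, was higher by 0.96 ± 0.15 (adjusted p = 0.0118). Eomes, the T-box relative of Tbx21, had 3.3, 7.7, 19.6 and 3.9 CPM in Th1 and 0.4 to 1.3 CPM in Th17 (3.35 ± 0.53, adjusted p = 0.0126). Its lowest Th1 value was the library labelled WT day 2.5 and its highest the NFATc1/ΔS library of the same day. Havcr2, the inhibitory receptor TIM-3, was higher by 4.01 ± 0.74 (adjusted p = 0.0215) but lost its call without the WT day 2.5 block (0.0919). Prdm1, whose product BLIMP-1 represses other fates, stood outside this list and had 44.9, 31.7, 18.3 and 34.1 CPM in Th1 against 2.5 to 4 CPM in Th17 (3.22 ± 0.25, adjusted p = 0.000954).

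Of 15 measured Th1 effector genes, 7 were higher and 1 lower in Th1, at a median of 1.6. Without the WT day 2.5 block 3 were higher (Ifng, Fasl and Gzmb) and 0 lower, and without the NFATc1/ΔS day 2.5 block 4 were higher and 1 lower. Ifng, the signature Th1 cytokine, had 53.5, 46.9, 185.9 and 38.2 CPM in Th1 and 2.4, 4.4, 2.4 and 3 CPM in Th17. The NFATc1/ΔS day 2.5 library stood over 3 others that lay close together, and no Th17 library came near them. In 8 libraries Ifng was at 4.39 ± 0.52 (edgeR adjusted p = 0.0616) and in 12 at 4.56 ± 0.6 (0.00676), with 0.0467 without the WT day 2.5 block.

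Nkg7, a granule protein of cytotoxic cells, had 151.2, 26.8, 83.2 and 24.4 CPM in Th1 and 9 to 14.3 CPM in Th17 (2.38 ± 0.42, edgeR adjusted p = 0.0179). Its highest value was the library labelled Th1 WT day 2.5, and without that block the adjusted p was 0.0682. The chemokine gene Ccl4 had 23.1, 7, 26.3 and 7.9 CPM in Th1 and 3, 4.1, 3 and 3 CPM in Th17 (2.18 ± 0.46, adjusted p = 0.0339, and 0.141 without the WT day 2.5 block). Tnfsf10, the death ligand TRAIL, was higher at 1.6 ± 0.3 (adjusted p = 0.0231, and 0.11 without that block). The gene lower in Th1 was Tnfsf14, the costimulatory ligand LIGHT, with 24.1, 24, 11.4 and 25.5 CPM in Th1 and 75.5, 59.9, 64.5 and 44.6 CPM in Th17 (-1.52 ± 0.25, adjusted p = 0.0142, and 0.0829 without the WT day 2.5 block).

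Of 16 measured genes of cytotoxic cells and NK receptors, 5 were higher and 1 lower in Th1. The counts were 1 higher and 0 lower without the WT day 2.5 block, and 4 and 0 without the NFATc1/ΔS day 2.5 block. Beside Gzmb, Prf1 and Nkg7 these were Klrk1, the activating receptor NKG2D, at 2.29 ± 0.41 (edgeR adjusted p = 0.0192) and Serpinb9, an inhibitor of granzyme B, at 2.06 ± 0.42 (adjusted p = 0.028). Serpinb9 had 19.2, 23.8, 79.7 and 18.3 CPM in Th1 and 6.9 to 8.4 CPM in Th17. Klrk1 had an adjusted p of 0.0856 and Serpinb9 of 0.0736 without the WT day 2.5 block. Cd8b1, the marker that CD8 T cells in the cultures would bring, was lower in Th1 at -0.84 ± 0.18 (adjusted p = 0.0391), with 21.5, 12.1, 9.5 and 12.4 CPM in Th1 and 29.1, 19.4, 28.1 and 21 CPM in Th17. Cd8b1 lost its call without the WT day 2.5 block (0.0683) and without the NFATc1/ΔS day 2.5 block (0.0553). Whether CD8 T cells contributed to these transcripts was not tested.

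Genes that interferon-γ induces in many cells were higher in Th1 as a group. Of 38 measured, 15 were higher and 0 lower in 12 libraries, 11 higher without the WT day 2.5 block and 11 without the NFATc1/ΔS day 2.5 block. The median was 0.64, and 33 of the 38 had a positive fold change. In 19 all 4 Th1 libraries lay above all 4 Th17 libraries, as they did in 7.19% of all genes. Th17 cultures also held antibody to interferon-γ, which the Th1 cultures lacked, so the antibody and the cytokine's own level cannot be told apart here. Th2 cultures held the same antibody. Summed over the 41 listed genes, levels were 7242 to 8432 CPM in Th1, 6581 to 8035 CPM in Th2 and 5636 to 6370 CPM in Th17. Single genes could differ from the sum, as Irf1 had 35.3 to 54.8 CPM in Th2 and 65.2 to 127.8 CPM in Th1. Guanylate-binding proteins, large GTPases that attack intracellular microbes, included the clearest member of the group. Several of their genes lie side by side on chromosome 3. Among them Gbp2b is one of the 88 genes that set the Th1 day 3.5 libraries apart, with 82.7 and 105.1 CPM there and at most 0.3 CPM in the other 10 libraries. The bases before 4 other members are shown because they carry the elements through which interferons are known to act. These are the 250 bases before each RefSeq start on GRCm38.p6, 5′ to 3′. Capitals mark TTCNNNGAA, the GAS element bound by STAT dimers, and 2 copies of GAAA that stand 2 bases apart, the core of the element bound by interferon regulatory factors, on either strand. Gbp7 spans chr3:142530086-142530335, Gbp5 chr3:142496684-142496933, Gbp3 chr3:142559794-142560043 and Gbp2 chr3:142620413-142620662, all on the plus strand.
Gbp7: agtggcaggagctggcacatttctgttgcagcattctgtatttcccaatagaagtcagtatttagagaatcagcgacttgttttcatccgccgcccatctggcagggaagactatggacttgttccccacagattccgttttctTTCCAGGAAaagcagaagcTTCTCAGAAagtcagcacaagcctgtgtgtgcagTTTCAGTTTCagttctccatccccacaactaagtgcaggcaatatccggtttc
Gbp5: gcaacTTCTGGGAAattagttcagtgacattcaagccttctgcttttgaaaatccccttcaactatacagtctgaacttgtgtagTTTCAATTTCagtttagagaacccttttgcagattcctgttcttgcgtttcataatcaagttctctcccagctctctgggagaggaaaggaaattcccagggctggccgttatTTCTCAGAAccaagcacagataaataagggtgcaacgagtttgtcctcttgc
Gbp3: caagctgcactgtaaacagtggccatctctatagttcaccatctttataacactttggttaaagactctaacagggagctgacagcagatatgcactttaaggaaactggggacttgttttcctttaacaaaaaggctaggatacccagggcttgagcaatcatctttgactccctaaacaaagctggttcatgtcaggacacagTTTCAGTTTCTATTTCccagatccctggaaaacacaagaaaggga
Gbp2: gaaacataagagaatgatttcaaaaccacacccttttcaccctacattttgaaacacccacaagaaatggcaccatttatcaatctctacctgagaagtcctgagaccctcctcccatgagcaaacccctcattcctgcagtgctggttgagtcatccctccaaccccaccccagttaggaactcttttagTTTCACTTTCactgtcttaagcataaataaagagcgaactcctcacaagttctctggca

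Gbp7 held 2 GAS matches and 1 core of the regulatory factor element, Gbp5 likewise 2 and 1, Gbp3 held 2 overlapping cores and no GAS match, and Gbp2 held 1 core. Gbp3 has 2 starts in the RefSeq table and 1 is shown, chosen by its number of matches. Among all 32851 promoter windows of this length, 7.02% held the GAS letters and 2.98% the core. Of the 28 genes of the group with a window, 10 held the GAS letters and 13 the core in at least 1 window. These are counts of genes, which may have several windows, so the shares of windows are not a like measure. A match is a description of letters and shows no binding.

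Gbp7 had 44.2, 54, 43.9 and 53 CPM in Th1 and 3, 8.1, 3.2 and 6.2 CPM in Th17. All 4 Th1 libraries lay close together, WT day 2.5 included. It was higher by 3.34 ± 0.25 in 8 libraries (edgeR adjusted p = 0.0352) and had an adjusted p of 0.0094 in the 12-library fit without the WT day 2.5 block. Gbp3 had 20.4, 21.4, 21.2 and 22.5 CPM in Th1 and 4.2, 6.9, 7 and 7.8 CPM in Th17 (1.73 ± 0.28, adjusted p = 0.0138, and 0.0374 without that block). Gbp5 had 74.3, 100.7, 91.4 and 105.5 CPM in Th1 and 20, 47.8, 32 and 54.6 CPM in Th17 (1.3 ± 0.29, adjusted p = 0.0384, and 0.105 without it). Gbp2 did not pass, at 1.03 ± 0.33 (adjusted p = 0.106), although its groups did not overlap at 83.1 to 109.1 CPM in Th1 and 28.5 to 63.9 CPM in Th17. In Th17, Gbp2 and Gbp5 were higher at day 3.5 than at day 2.5 in both genotypes.

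Serpina3g, a protease inhibitor of activated T cells, had 3, 17.1, 20.8 and 11.9 CPM in Th1 and 1 to 1.7 CPM in Th17 (3.28 ± 0.46, edgeR adjusted p = 0.00779). The library labelled Th1 WT day 2.5 was its lowest Th1 value, and the adjusted p without that block was 0.00964. Serpina3g lost its call without the WT day 3.5 block (0.0908) and without the NFATc1/ΔS day 3.5 block (0.0794). Iigp1, an immunity-related GTPase, had 4.6, 6.5, 28.8 and 7.4 CPM in Th1 and 1.1 to 1.8 CPM in Th17 (2.68 ± 0.47, adjusted p = 0.018, and 0.0463 without the WT day 2.5 block). Its relative Irgm2 was higher by 0.6 ± 0.11 (adjusted p = 0.0205, and 0.0832 without that block). Psmb9, a subunit of the immunoproteasome, had 138.3, 210.7, 159.5 and 207.5 CPM in Th1 and 75, 91.8, 78.4 and 96.3 CPM in Th17 (1.06 ± 0.12, adjusted p = 0.00378, and 0.016 without it). Its partner subunit Psmb8 (51.2% unique reads) was higher by 0.48 ± 0.08 (adjusted p = 0.0179) and lost its call without the WT day 2.5 block (0.0742). Cd274, the inhibitory ligand PD-L1, was higher by 0.62 ± 0.11 (adjusted p = 0.0196) and lost it too (0.106).

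A further 5 members called higher were counted largely from reads that also map elsewhere, and their levels are uncertain. These were Irf8 (24.1% unique reads), Gbp4 (13%), Igtp (6.26%), Tgtp2 (0.234%) and Tgtp1 (0.0375%). Irf8, an interferon regulatory factor, had 390.3, 637.9, 586.9 and 593.9 CPM in Th1, with WT day 2.5 the lowest, and 207.3 to 314.3 CPM in Th17 (1.16 ± 0.22, edgeR adjusted p = 0.0237, and 0.0609 without the NFATc1/ΔS day 2.5 block). Of 19 measured genes of the type I interferon response, 1 was higher and 1 lower, at a median of 0.0 (0 lower without the NFATc1/ΔS day 2.5 block). Ifngr2, the receptor chain for interferon-γ, did not pass in 12 libraries at -1.64 ± 0.4 (adjusted p = 0.0515).

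**Figure D3:**
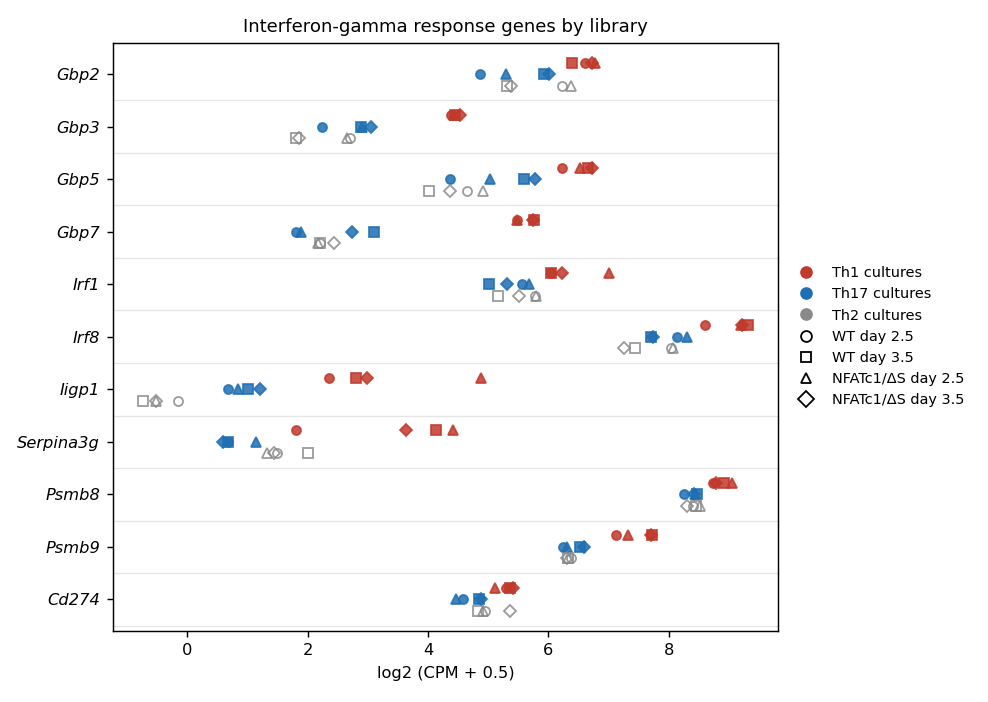
Levels of 11 interferon-γ-induced genes as log2(CPM + 0.5), 1 point a library, by cell type, genotype and day, with Th2 in grey open symbols. Gbp7 lies at 43.9 to 54 CPM in the 4 Th1 libraries and 3 to 8.1 CPM in the 4 Th17 libraries. The 11 genes were picked for display, and the groups overlap for none of them. Of all 38 tested genes of the list, 19 had all Th1 libraries above all Th17 libraries, beside 7.19% of all genes.

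The cytokine and receptor genes of Th17 cells were lower in Th1. Of 16 measured of the 21 listed, 8 were lower and 0 higher in 12 libraries, at a median of -1.34. The count was 6 without the WT day 2.5 block and 4 without the NFATc1/ΔS day 2.5 block. Il22, Il9, Ccl20, Il17re and Cd5l were too low to be tested. Il17a and Il17f, which encode the signature cytokines, lie next to each other on chromosome 1 and are read from opposite strands. Their 250 bases before the RefSeq start on GRCm38.p6 are shown for comparison with the interferon-responsive windows. Il17a spans chr1:20730655-20730904 on the plus strand and Il17f chr1:20784271-20784520 on the minus strand. Capitals mark AGGTCA on either strand, a core recognised by many nuclear receptors, among them those of the ROR family.
Il17a: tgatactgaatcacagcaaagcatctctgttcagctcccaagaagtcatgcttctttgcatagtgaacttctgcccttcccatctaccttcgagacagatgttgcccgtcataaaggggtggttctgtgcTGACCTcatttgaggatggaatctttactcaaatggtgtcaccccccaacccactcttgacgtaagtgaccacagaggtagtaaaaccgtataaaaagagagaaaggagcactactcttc
Il17f: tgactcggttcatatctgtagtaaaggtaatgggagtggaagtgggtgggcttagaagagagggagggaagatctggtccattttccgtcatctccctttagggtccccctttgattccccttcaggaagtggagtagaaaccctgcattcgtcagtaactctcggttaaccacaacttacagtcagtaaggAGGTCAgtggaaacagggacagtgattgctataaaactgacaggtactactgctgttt

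Each of these windows held 1 match, as did 14.0% of all 32851 windows, and neither held the GAS or the regulatory factor letters. Of 20 listed Th17 cytokine and receptor genes, 7 held AGGTCA in at least 1 window, 1 the GAS letters and 0 the core of the regulatory factor element. These again count genes and not windows.

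Il17f had 0, 0.3, 0.3 and 0.2 CPM in Th1 and 59.9, 20.9, 14.5 and 8.1 CPM in Th17. The Th17 values ran from the WT libraries at the top to NFATc1/ΔS day 3.5 at the bottom, and every Th1 library was near 0. In 8 libraries its fold change was -6.57 ± 0.79 (edgeR adjusted p = 0.0624), and in 12 without the WT day 2.5 block its adjusted p was 0.0094. Il17a had 2.3, 0.8, 2.2 and 0.8 CPM in Th1 and 17.4, 12.5, 5.7 and 5.5 CPM in Th17 (12 libraries, -2.65 ± 0.45, adjusted p = 0.0163). It lost its call when the WT day 2.5 block was left out (0.0816). Th2 libraries had 1 to 2.2 CPM of Il17a, within the Th1 range.

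Il1r1, the IL-1 receptor chain that supports Th17 growth, had 0.6, 0.2, 0.3 and 0.3 CPM in Th1 and 4, 3.2, 2.2 and 2.2 CPM in Th17 (-3.04 ± 0.3, edgeR adjusted p = 0.00195). It kept its call without the WT day 2.5 block (0.0153). Il6ra, the IL-6 receptor, had 77.6, 50.5, 36.6 and 76.1 CPM in Th1 and 90.1 to 125.8 CPM in Th17 (-0.86 ± 0.16, adjusted p = 0.0235, with 0.0331 without that block and 0.0521 without the NFATc1/ΔS day 2.5 block). Il21, a cytokine that Th17 and follicular helper cells make, had 73.1, 9.1, 20 and 28.3 CPM in Th1 and 167.9, 355.6, 163.1 and 296.1 CPM in Th17 (-3.02 ± 0.59, adjusted p = 0.0252). The Th1 WT day 2.5 library was the nearest to Th17 in Il21, and without its block the adjusted p was 0.0207. Without the NFATc1/ΔS day 2.5 block Il21 lost its call (0.103). Th2 libraries had more Il21 than most Th17 libraries, at 311.3 to 628.8 CPM.

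Pdpn, the membrane glycoprotein podoplanin, had 0.2, 0.6, 0.4 and 0.4 CPM in Th1 and 11.8, 7.6, 1.4 and 1 CPM in Th17, where both WT libraries were high (-3.34 ± 0.76, edgeR adjusted p = 0.0431, and 0.0917 without the WT day 2.5 block). Tmem176b, a membrane channel gene, was lower at -1.47 ± 0.32 (adjusted p = 0.0394, with 0.0444 without that block and 0.0667 without the NFATc1/ΔS day 2.5 block, where it lost its call). Il23r, the receptor that maintains Th17 cells, did not pass at -1.58 ± 0.42 (adjusted p = 0.0647). Its groups overlapped at 0.6 to 1.6 CPM in Th1 and 1.6 to 4.7 CPM in Th17.

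Of 16 Th17 transcription factors measured, 4 were lower and 0 higher in Th1, at a median of -0.44. In the fit without the WT day 2.5 block 1 was lower, and without the NFATc1/ΔS day 2.5 block 4. Rora, an orphan nuclear receptor of the Th17 programme, had 16.7, 27.5, 5.9 and 33.4 CPM in Th1 and 127.8, 76.5, 109.3 and 74 CPM in Th17 (-2.22 ± 0.5, edgeR adjusted p = 0.042). Ahr, the aryl hydrocarbon receptor, had 6.4, 3.7, 4.4 and 8.1 CPM in Th1 and 37.1, 14.6, 20.5 and 14.3 CPM in Th17 (-1.84 ± 0.31, adjusted p = 0.0159). Batf, a partner of IRF4, was lower at -0.73 ± 0.15 (adjusted p = 0.0285). Each of these 3 lost its call without the WT day 2.5 block, at adjusted p of 0.181, 0.0868 and 0.102. For Ahr and Batf the Th2 libraries did not follow Th1: Ahr lay at 14.9 to 39.1 CPM and Batf at 226.5 to 312.2 CPM in Th2.

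Genes of TGFβ signalling and response were counted because TGFβ was given to the Th17 cultures alone. The list holds the ligand, its receptors and SMAD transducers beside genes that TGFβ induces, so its counts do not measure induction alone. Of 22 measured, 3 were lower and 0 higher in Th1, at a median of -0.42. Leaving out the WT day 2.5 block gave 1 lower and 1 higher, and leaving out the NFATc1/ΔS day 2.5 block gave 2 lower. Ctla4, an inhibitory receptor, had 451.8, 316.5, 309.8 and 328.2 CPM in Th1 and 811.5, 679.4, 533.1 and 507.7 CPM in Th17 (-0.84 ± 0.11, edgeR adjusted p = 0.00601, and 0.0374 without the WT day 2.5 block). Ldlrad4, an inhibitor of SMAD signalling that TGFβ induces, had 2, 1.8, 0.8 and 2.7 CPM in Th1 and 12.1, 4.4, 11.9 and 6.3 CPM in Th17 (-2.14 ± 0.43, adjusted p = 0.028, and 0.145 without that block). Tgif1, a SMAD corepressor, was lower at -0.64 ± 0.15 (adjusted p = 0.0447, and 0.182 without that block). Of 16 SOCS family genes and STAT3 targets, 0 were called in either direction, at a median of -0.09. Of 11 targets of the aryl hydrocarbon receptor with any reads, 4 had enough to be tested. Of these 4, 1 was lower, which was Ahr itself (0 without the WT day 2.5 block).

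Several genes with large negative fold changes lay outside the lineage lists. They were named after their values had been seen. Crispld2, which encodes a secreted protein, had 6.2, 0.8, 0.3 and 2.1 CPM in Th1 and 64.5, 33.6, 32 and 20.9 CPM in Th17 (-4.29 ± 0.48, edgeR adjusted p = 0.00348, 21% unique reads). Th2 libraries had 0.3 to 0.7 CPM of it, so all 4 Th17 libraries lay above the other 8. Foxj1, a forkhead factor, had 3.6, 0.3, 0.8 and 0.7 CPM in Th1 and 8.3 to 16 CPM in Th17 (-3.39 ± 0.44, adjusted p = 0.00628), with Th1 WT day 2.5 the nearest to Th17. Enpp2, which makes lysophosphatidic acid as autotaxin, was lower at -3.23 ± 0.46 (adjusted p = 0.00858) and Aqp3, a water and glycerol channel, at -3.05 ± 0.36 (0.00427). Lrp1, an endocytic receptor, had 10.6, 4.6, 2 and 6.3 CPM in Th1 and 69.8, 27.3, 49.7 and 23.8 CPM in Th17 (-2.83 ± 0.41, adjusted p = 0.00862). Without the WT day 2.5 block the adjusted p was 0.0217 for Crispld2, 0.0094 for Foxj1, 0.0353 for Enpp2, 0.0188 for Aqp3 and 0.0477 for Lrp1, so these 5 kept their calls. Timp1, an inhibitor of metalloproteinases, was lower at -3.1 ± 0.55 (adjusted p = 0.0192) and lost the call there (0.0919). When the WT day 3.5 block was left out, Enpp2 (0.0816), Aqp3 (0.0565), Lrp1 (0.0854) and Timp1 (0.106) were not called. When the NFATc1/ΔS day 3.5 block was left out, Enpp2 (0.0619) and Foxj1 (0.0685) were not.

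Among 19 measured chemokines and their receptors, 4 were lower and 1 higher in Th1, at a median of -0.36, and 4 lower and 0 higher when either day 2.5 block was left out. Beside Ccr6, Ccl22 and Ccl4, given above, Ccr4, the receptor for CCL22, had 21.1, 26.3, 40.3 and 28.4 CPM in Th1 and 105.1, 102.5, 70.2 and 72.8 CPM in Th17 (-1.6 ± 0.22, edgeR adjusted p = 0.0074, and 0.0333 without the WT day 2.5 block). S1pr1, the receptor by which T cells leave lymph nodes, had 31, 12.1, 14 and 14.2 CPM in Th1 and 60.7, 36.6, 67.2 and 55 CPM in Th17 (-1.68 ± 0.21, adjusted p = 0.00565, and 0.0145 without that block). Th1 WT day 2.5 was the Th1 library nearest to Th17 for S1pr1. Of 21 integrins and adhesion genes 3 were higher and 0 lower, with 2 higher without the NFATc1/ΔS day 2.5 block. Jaml, a junctional adhesion molecule, was higher by 1.61 ± 0.19 (adjusted p = 0.00427) and Itga4, the α4 integrin chain, by 0.76 ± 0.17 (adjusted p = 0.043, and 0.121 without the WT day 2.5 block).

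Of 18 genes of naive and memory T cells, 4 were lower and 1 higher, at a median of -0.31, and 2 were lower without the WT day 2.5 block. Lef1, a factor of naive T cells, had 152.2, 175.6, 119.1 and 165.9 CPM in Th1 and 226.9 to 266 CPM in Th17 (-0.7 ± 0.14, edgeR adjusted p = 0.0304, and 0.141 without the WT day 2.5 block). Its relative Tcf7 was lower at -0.78 ± 0.14 (adjusted p = 0.0192, with 0.0274 without that block and 0.0595 without the NFATc1/ΔS day 2.5 block) but had 20.2% unique reads. Igfbp4, a binding protein for insulin-like growth factors, had 204.4, 113.6, 101 and 208.6 CPM in Th1 and 498.2 to 713.9 CPM in Th17 (-1.95 ± 0.33, adjusted p = 0.017, and 0.065 without the WT day 2.5 block).

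Of 22 genes of regulatory and follicular helper T cells, 5 were lower and 1 higher, at a median of -0.46. The counts were 4 lower and 0 higher without the WT day 2.5 block, and 1 lower and 1 higher without the NFATc1/ΔS day 2.5 block. The pair of enzymes that turn extracellular ATP into adenosine went in opposite directions. Entpd1 (CD39), which removes the phosphates of ATP, had 41.8, 27.1, 13.9 and 28.9 CPM in Th1 and 13.6, 9.3, 9.2 and 6.6 CPM in Th17 (1.51 ± 0.24, edgeR adjusted p = 0.0133, and 0.0833 without the WT day 2.5 block). Nt5e (CD73), which takes the last step to adenosine, had 9.6, 2.9, 4.3 and 4.1 CPM in Th1 and 30.7, 12.7, 37.1 and 16.5 CPM in Th17 (-2.21 ± 0.23, adjusted p = 0.00234, and 0.0164 without that block). Bcl6, the factor of follicular helper cells, was lower at -1.07 ± 0.24 (adjusted p = 0.041, and 0.154 without that block), and Pou2af1, a coactivator of octamer factors, at -2.36 ± 0.49 (adjusted p = 0.0307, with 0.0194 without that block and 0.0914 without the NFATc1/ΔS day 2.5 block). Capg, an actin-capping protein, was lower at -0.63 ± 0.12 (adjusted p = 0.0259, with 0.022 without the WT day 2.5 block and 0.0759 without the other). Of 21 genes of the BCL2 family and death receptors 4 were higher and 0 lower, at a median of -0.03, with 2 higher without the WT day 2.5 block and 3 without the NFATc1/ΔS day 2.5 block.

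Of the genes described above that lost their call without the WT day 2.5 block, several also lost it without the NFATc1/ΔS day 2.5 block. The adjusted p (edgeR) was then 0.0621 for Havcr2, 0.0595 for Nkg7, 0.103 for Ccl4, 0.052 for Tnfsf10, 0.0935 for Gbp5 and 0.0559 for Cd274. It was 0.0676 for Pdpn, 0.124 for Tgif1, 0.0533 for Ldlrad4, 0.114 for Itga4 and 0.105 for Bcl6. These calls thus did not hold when either day 2.5 block was left out, which also costs degrees of freedom. Calls over all genes fell further without a day 3.5 block, from 611 to 56 (WT) and 69 (NFATc1/ΔS). Eomes, Iigp1, Il21 and Il17a lost their calls without either of these blocks. Their adjusted p (edgeR) was 0.103, 0.106, 0.0908 and 0.116 without the WT day 3.5 block. It was 0.0697, 0.0951, 0.138 and 0.0819 without the NFATc1/ΔS day 3.5 block. Ifng, Prdm1 and Il17f kept their calls in both fits. For most other genes above, the fits without a day 3.5 block are not given.

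**Figure D4:**
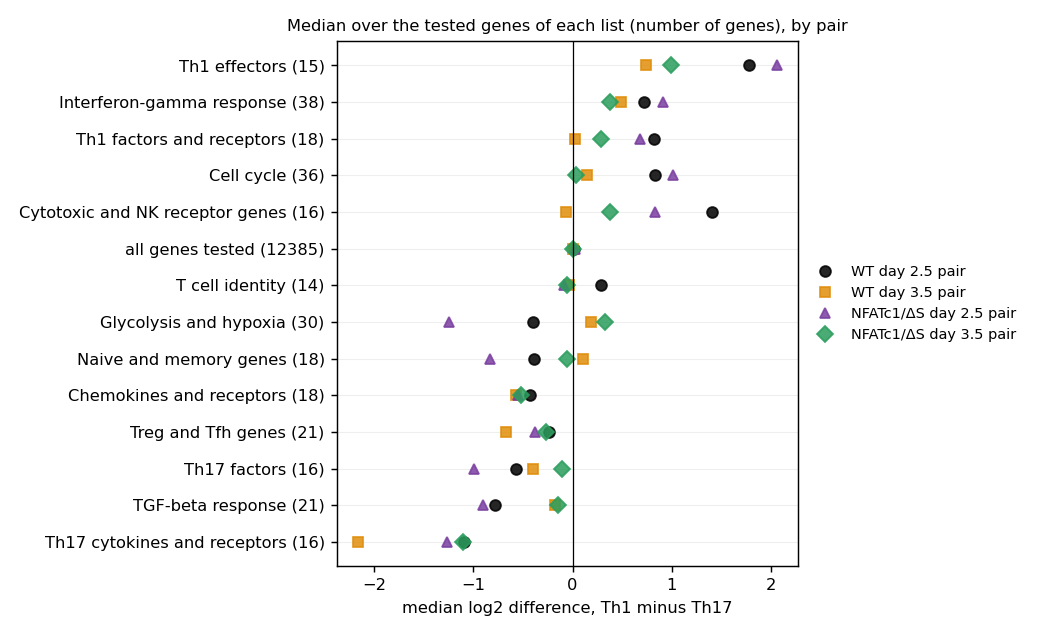
Median log2 difference, Th1 minus Th17, of 13 gene groups and of all genes tested in each of the 4 pairs of libraries (x axis, log2). Interferon-γ-induced genes lie above 0 in all 4 pairs (0.72, 0.49, 0.91 and 0.38) and Th17 cytokine and receptor genes below 0 (-1.09, -2.16, -1.27 and -1.1), while glycolysis and hypoxia genes change sign between days.

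The difference between Th1 and Th17 depended on the day for 1238 of 12385 genes (10.0%) in a test of the difference itself with 1 residual degree of freedom. It was more positive at day 3.5 in 583 (4.71%) and more negative in 655 (5.29%). Each day was also fitted alone, with 2 libraries against 2. Day 2.5 gave 117 calls of 12459 (0.939%), 51 higher (0.409%) and 66 lower (0.53%). Day 3.5 gave 4086 of 12835 (31.8%), 1988 higher (15.5%) and 2098 lower (16.3%). The days share no library. Of the 117, 78 were also called at day 3.5, 64 in the same direction (54.7% of the day 2.5 calls and 1.57% of the day 3.5 calls) and 14 in the opposite one. The day 2.5 fit rests on both Th1 libraries that stood apart singly, and the day 3.5 fit on the 2 that stood apart as a pair, all 88 of whose genes are among the 4086.

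Ifng, Nkg7 and Ccl4 were among the genes whose difference was smaller at day 3.5. Their change by day was -1.83 (edgeR adjusted p = 0.0401), -1.61 (0.0289) and -1.92 (0.0254). Ccl3, a chemokine made beside Ccl4, had 7.8, 2, 24.8 and 2.1 CPM in Th1 and 0.8, 1.1, 1 and 1 CPM in Th17, a change by day of -2.99 (adjusted p = 0.0228). Ms4a4c, a tetraspan membrane protein, had 27.9, 9.3, 51.6 and 9.4 CPM in Th1 and 0.6, 3, 2 and 3.6 CPM in Th17 (change by day -3.49, adjusted p = 0.00356). Spp1, the cytokine osteopontin, and Ajuba, a LIM domain protein, moved likewise at -3.18 (0.0119) and -2.63 (0.00577). In all of these the Th1 level was higher at day 2.5 in both genotypes. For Ifng the WT gap was small, at 53.5 CPM on day 2.5 and 46.9 CPM on day 3.5, beside 185.9 and 38.2 CPM in NFATc1/ΔS. Ms4a4c, Spp1 and Ajuba were picked after their values had been seen.

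Rora, Smad3 and Ifngr2 changed the other way. Smad3, a transducer of TGFβ signals, had 39.7, 52.5, 20.4 and 61.3 CPM in Th1 and 127.9, 70.6, 123.6 and 72.4 CPM in Th17, so its gap was wide at day 2.5 and narrow at day 3.5 (change by day 1.83, edgeR adjusted p = 0.0239). Ifngr2 had 17.6, 33.7, 10.3 and 34.4 CPM in Th1 and 95, 50.2, 89.2 and 60.8 CPM in Th17 (2.1, adjusted p = 0.0058). Rora had a change by day of 2.26 (0.0441). Runx3, a factor that acts with T-bet, had 160.7, 224.9, 74.8 and 249.6 CPM in Th1 and 291.5, 158.9, 303.1 and 151.2 CPM in Th17. Its Th1 libraries were below Th17 at day 2.5 and above at day 3.5 (2.07, adjusted p = 0.0325). For all 4 genes the lowest Th1 value was NFATc1/ΔS day 2.5 and the next lowest WT day 2.5.

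Genes of glycolysis and the response to low oxygen had opposite signs on the 2 days. Of 30 measured, 0 had a positive fold change at day 2.5 and 23 did at day 3.5, and the medians of the 4 pairs were -0.4, 0.19, -1.25 and 0.33. At day 2.5 none was called, and at day 3.5 19 were higher and 4 lower in Th1. Over all genes day 3.5 called 15.5% higher and 16.3% lower. The difference by day was called in 8 of the 30, all more positive at day 3.5, as were 4.71% of all genes. Slc2a1, the glucose transporter GLUT1, had 288.2, 452.8, 210.9 and 456.9 CPM in Th1 and 482.8, 295.8, 498.3 and 252.2 CPM in Th17 (change by day 1.75, edgeR adjusted p = 0.0165). Egln1, an oxygen-sensing prolyl hydroxylase, had 319.6, 416.3, 179.7 and 431.8 CPM in Th1 and 530.6, 343.6, 540.4 and 321.5 CPM in Th17 (1.53, adjusted p = 0.0315). In both genes Th17 was lower at day 3.5 than at day 2.5 and Th1 higher.

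The library labelled Th1 NFATc1/ΔS day 2.5 stood lowest in this group, more than 2-fold below all other 7 libraries in 8 of the 30 genes. Slc2a3, the glucose transporter GLUT3, had 1625, 2173, 335.5 and 2130 CPM in Th1 and 993.4 to 1768 CPM in Th17. Ndrg1, a gene that low oxygen induces, had 450.7, 645, 58.9 and 770 CPM in Th1, and Aldoc, a glycolytic aldolase, 344.2, 311.2, 39.9 and 293.1 CPM. In the WT pair the direction at day 2.5 was the same, at the smaller median of -0.4. Over both days the group gave 1 call in 12 libraries, Eno1, lower in Th1 at -0.46 ± 0.09 (edgeR adjusted p = 0.0286, 24.9% unique reads, with 0.0683 without the WT day 2.5 block and 0.0607 without the NFATc1/ΔS day 2.5 block).

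Cell cycle genes had a larger median difference between Th1 and Th17 at day 2.5 than at day 3.5. The fit of day 2.5 called 1 of 36 higher and 0 lower in Th1, and that of day 3.5 called 8 higher and 6 lower. Over all genes day 2.5 called 0.409% higher, and day 3.5 called 15.5% higher and 16.3% lower. The 6 lower calls were thus near the share over all genes. The medians of the 4 pairs over 36 measured genes were 0.83, 0.15, 1.01 and 0.04, and 32 of 36 fold changes were positive at day 2.5 against 24 at day 3.5. The change by day was called in 16 of the 36, all of them more negative at day 3.5, as were 5.29% of all genes. Rrm2, a subunit of ribonucleotide reductase, had 199.3, 197.3, 416.4 and 183.6 CPM in Th1 and 72.7, 170.1, 110.3 and 189.5 CPM in Th17 (change by day -1.58, edgeR adjusted p = 0.0165). Mcm2, part of the replicative helicase, had 167.7, 180.5, 386.1 and 174.8 CPM in Th1 and 88.9, 188.1, 109.7 and 173.5 CPM in Th17 (-1.37, adjusted p = 0.0254). The Th17 libraries of day 2.5 were low and the Th1 library NFATc1/ΔS day 2.5 was high, and the other 5 lay near each other. Cdk1, the kinase that starts mitosis, changed by -0.9 (adjusted p = 0.0492). Over both days 3 of 36 were called higher in Th1 in 12 libraries (Cdk1, Bub1 and Cdkn2c, at 0.76, 0.62 and 0.69), and none of the 3 kept its call when either day 2.5 block was left out.

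**Figure D5:**
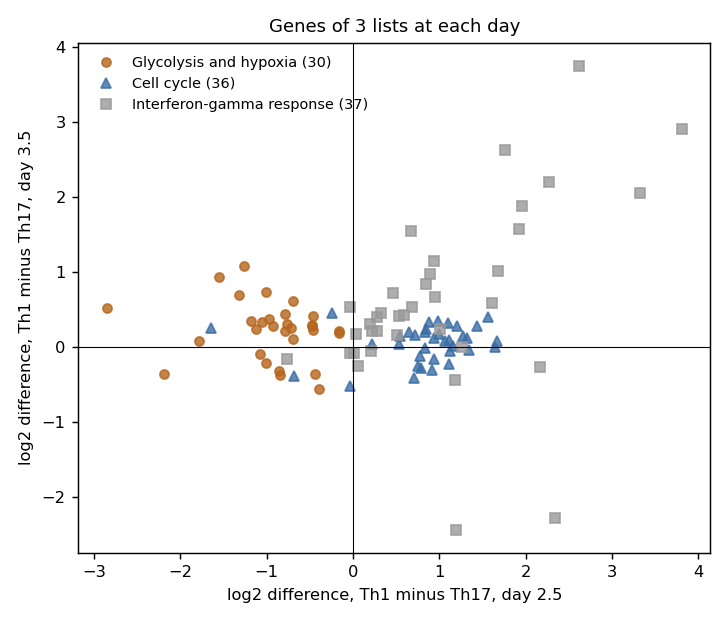
Log2 difference, Th1 minus Th17, of each gene at day 2.5 (x axis) and day 3.5 (y axis) for glycolysis and hypoxia (30 genes), cell cycle (36 genes) and interferon-γ-induced genes, each from a fit of 4 libraries. All 30 glycolysis and hypoxia genes lie left of 0 and 23 of them above it, while cell cycle genes spread further along the x axis than along the y axis and most interferon-γ-induced genes lie in the upper right.

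Interferon-γ-induced genes were mostly positive on each day, as 34 of 37 tested were positive at day 2.5 (5 called higher) and 29 of 38 at day 3.5 (24 called higher, 2 lower). Over all genes 0.409% were called higher at day 2.5, and 15.5% higher and 16.3% lower at day 3.5. The difference by day was called in 6 of the interferon-γ-induced genes, all more negative at day 3.5, as were 5.29% of all genes. Gbp2 was among them (-1.01, edgeR adjusted p = 0.0446). Th17 cytokine and receptor genes gave 1 lower call of 16 at day 2.5 and 11 of 17 at day 3.5, beside 0.53% and 16.3% of all genes. Of all 12385 genes, 1 had a difference between Th1 and Th17 that depended on genotype (0.00807%). It was Gm15287, with 0.102% unique reads and 1 low library in each group, at 0.1 CPM in Th1 NFATc1/ΔS day 3.5 and 0.2 CPM in Th17 WT day 2.5.

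Markers of other cells were compared because RNA from cells that escaped the CD4+ selection would move with the groups. In a culture, fewer cells of a type and less RNA per cell cannot be told apart. Summed levels of 14 T cell identity genes were 5372 to 6247 CPM in Th1 and 5395 to 5730 CPM in Th17, with 1 gene higher and 1 lower, and 0 called when either day 2.5 block was left out. Of 8 measured B cell markers 4 were lower and 0 higher in Th1 (2 lower without the WT day 2.5 block and 3 without the NFATc1/ΔS day 2.5 block), and the summed list held 21.5 to 69.7 CPM in Th1 and 44.3 to 88.2 CPM in Th17, while Ms4a1 was too low to be tested. Ebf1, a B cell factor, had 6.1, 2.6, 1.9 and 3.5 CPM in Th1 and 17.8, 16.5, 7.2 and 7.6 CPM in Th17 (-1.76 ± 0.28, edgeR adjusted p = 0.0138, and 0.0372 without the WT day 2.5 block). Cd79b, a B cell receptor chain, was lower at -1.94 ± 0.3 (adjusted p = 0.012, and 0.0563 without that block). Of 8 genes of dendritic cells and MHC class II 2 were lower (3 without the WT day 2.5 block and 1 without the NFATc1/ΔS day 2.5 block), with sums of 56.3 to 163.4 CPM in Th1 and 164.8 to 257.5 CPM in Th17. Cd74, the invariant chain, had 9, 2.2, 9.8 and 2.6 CPM in Th1 and 43.6, 33.7, 40.5 and 26.6 CPM in Th17 (-2.72 ± 0.4, adjusted p = 0.00991, and 0.0344 without the WT day 2.5 block). Cd74 lost its call without the WT day 3.5 block (0.0545) and without the NFATc1/ΔS day 3.5 block (0.0728). Myeloid markers summed to 4.8 to 20.6 CPM and 10.8 to 21.3 CPM, with 1 of 4 lower (2 without the WT day 2.5 block and 0 without the NFATc1/ΔS day 2.5 block), and erythroid ones to 2.9 to 7.8 CPM and 1.7 to 23.6 CPM, with 0 of 3 called. Called markers of B cells and of antigen presentation were thus lower in Th1 cultures, and their part in the differences above was not tested. Of 18 Th2 genes, 2 were lower and 0 higher in Th1, and 1 was lower when either day 2.5 block was left out.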

How the data were processed

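The authors deposited 1 table per library of read counts for 41457 Ensembl genes. Per the file headers these are total, unique, exon and intron reads per gene. The total gene reads were used, which include reads that also map elsewhere, so genes with few unique reads are named as uncertain. Positions are on GRCm38, per the submitters' processing notes. Aligner, read counter and strand setting: not given in the sources used here, so reads of overlapping genes cannot be told apart. RPKM and TPM columns played no part.

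Th1 was compared with Th17 in 8 libraries, with genotype by day as 4 blocks, by edgeR 4.0.16 in R 4.3.3: TMM scaling, filterByExpr (minimum count 10, minimum total 15), quasi-likelihood fits with the robust option, and p-values adjusted by Benjamini-Hochberg over all genes tested, called at 0.05. These pairs of matching genotype and day come from the labels, which do not say that a pair shares an animal. A standard error is |log2 fold change| over the root of the test's F value. The 12-library fit added the Th2 libraries with the same blocks. Change by day and by genotype came from a fit of the 8 libraries with both terms. The biological coefficient of variation was 29.7% in 8 libraries and 24.4% in 12, and the reads carry no molecular identifiers. The fits were tested on simulated counts.

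Comparisons between Th1 and Th17 by pair used log2 CPM with a prior count of 2. Genes named were Tbx21, Fasl and Ccr6, genes called in the 8 libraries with a mean log2 CPM of at least 1 and 1 direction in 4 of 4 pairs, and members of 29 gene lists. Further genes, and the largest changes of the 12-library fit (15 each way) and of day 2.5 (12 each way), were added after values had been seen. The comparison, the genes and the lists were chosen with earlier results of these data known. A few genes are not reported by name but stay in all counts. Promoter windows are from RefSeq (GRCm38.p6) and were matched by gene symbol. Alternatives were RLE and upper-quartile scaling, DESeq2 1.42.0, limma-voom (limma 3.58.1), other filters, unique or exon reads, no blocks or additive terms, a minimum log2 fold change of 0.5, parts of the libraries, and each pair or library left out.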

Additional observations from a re-analysis of the deposited data

Results flagged for a closer look

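In 20 of 256 groups of 4 libraries, 1 library stood apart from the other 3 by more than Dixon's critical ratio (the gap over the whole range). For 4 libraries of the same condition chance gives about 1 in 20. The 4 libraries of a group differ in genotype and day, and many of the genes were picked after their values had been seen. That rate is therefore no measure of chance for these groups. The library labelled Th1 NFATc1/ΔS day 2.5 was most often the distant one. It was low in Tnfsf14 (ratio 0.924), Slc2a3 (0.845) and Aldoc (0.925), and high in Mcm2 (0.911) and Rrm2 (0.9). In summed CPM it was low for genes of TGFβ signalling and response (0.952), chemokines and receptors (0.836) and the BCL2 family with death receptors (0.85). It was high in the sum of cell cycle genes (0.858). The library labelled Th1 WT day 2.5 was high in Fasl (0.843) and Ctla4 (0.848) and low in Irf8 (0.83), and high in the sums of T cell identity (0.943) and T cell activation genes (0.876). Th1 WT day 3.5 was high in the sum of sterol genes (0.919). In Th17, WT day 3.5 was low in Tbx21 (0.853) and high in Ccl4 (0.946), and NFATc1/ΔS day 2.5 was high in Serpinb9 (0.861). Gm15287 was low in Th1 NFATc1/ΔS day 3.5 (0.918) and in Th17 WT day 2.5 (0.95).

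The difference between Th1 and Th17 changed with day in 1238 genes and with genotype in 1 (edgeR, Benjamini-Hochberg adjusted, 1 residual degree of freedom). Values are day 3.5 minus day 2.5 of the log2 difference. Among Th1 genes and chemokines they were -1.83 for Ifng, -1.61 for Nkg7, -1.92 for Ccl4, -2.99 for Ccl3, -1.01 for Gbp2, -3.49 for Ms4a4c, -3.18 for Spp1 and -2.63 for Ajuba. Receptors and factors gave 2.26 for Rora, 1.83 for Smad3, 2.1 for Ifngr2, 2.07 for Runx3 and -1.06 for Nfatc1. Growth and metabolism genes gave -0.9 for Cdk1, -1.37 for Mcm2, -1.58 for Rrm2, 1.75 for Slc2a1 and 1.53 for Egln1. Cd74 gave -1.43. Serpinb6b, a protease inhibitor, gave 2.2, with 78.6, 153.5, 103.6 and 122.8 CPM in Th1 and 96.7, 29.8, 85.2 and 31.4 CPM in Th17. Cfap77 gave 8.59 and Vill -10.59, both among the 88 genes that set the 2 Th1 day 3.5 libraries apart. Gm15287 gave -8 by day and -8.08 by genotype (NFATc1/ΔS minus WT), from a single low library in each group.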

How the results depend on the processing

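The number of genes called between Th1 and Th17 depended on the tool and on the libraries. Against 12 in the 8 libraries, DESeq2 called 602, limma-voom 7, a fit with no read filter 109, no replicate block (the pairs of genotype and day) 178, additive genotype and day 95, all 12 libraries 611, the WT libraries alone 4, the NFATc1/ΔS libraries alone 1, day 2.5 alone 117 and day 3.5 alone 4086. RLE and upper-quartile scaling, a CPM filter, no robust fit, unique reads, exon reads and a minimum log2 fold change of 0.5 gave 8 to 18. Leaving out a pair (with blocks) or a library (additive terms) gave 0 to 224. The 611 of the 12-library fit became 1651 with DESeq2, and 56 to 928 when a block, the Th1 WT day 2.5 library or the Th1 NFATc1/ΔS day 2.5 library was left out. It became 4082 without both Th1 day 2.5 libraries and 4124 without both Th1 day 3.5 libraries. Without the WT day 2.5 pair, DESeq2 called 436 in place of 0. DESeq2 called 741 at day 2.5 in place of 117, 1532 at day 3.5 in place of 4086, 765 by day in place of 1238 and 2 by genotype in place of 1, and unique reads gave 1879 by day. The cause was not tested. Of 319 values of 11 genes taken by rule in the 8 libraries, 209 kept direction and side of the threshold, 98 lost the threshold, 12 gained it and 0 reversed. Of 264 values of 22 genes of the 12-library fit, 219 kept both, 45 lost the threshold and 0 reversed. Counting error was not compared with the biological coefficient of variation, which was 29.7% in 8 libraries and 24.4% in 12 over all genes. Depth may therefore limit genes near 1 CPM.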

Other observations

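In gene groups of metabolism and stress, few genes were called between Th1 and Th17 in 12 libraries. Of 28 genes of sterol synthesis and uptake, 1 was higher and 1 lower in Th1, at a median log2 fold change of 0.16, and 0 were higher and 1 lower when either day 2.5 block was left out. Of 31 measured genes of the amino acid response through ATF4, 0 were called, at a median of 0.2. Of 15 targets of NRF2, the factor of the oxidative stress response, 1 was lower, at a median of 0.41. Of 18 selenoprotein genes 1 was lower (0 without the NFATc1/ΔS day 2.5 block), and of 13 mitochondrially encoded genes 0 were called. Of 28 T cell activation genes and co-receptors, 1 was higher and 1 lower, at a median of 0.03 (0 higher and 1 lower when either day 2.5 block was left out).

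Of genes outside these groups, picked after their values had been seen, Nefh, a neurofilament subunit, had 1.3, 12.5, 22.9 and 12.2 CPM in Th1 and 0.8, 1, 0.8 and 1.9 CPM in Th17 (3.19 ± 0.61, edgeR adjusted p = 0.0241). Its Th1 WT day 2.5 value lay within the Th17 range, and the adjusted p was 0.0145 without the WT day 2.5 block and 0.0766 without the NFATc1/ΔS day 2.5 block. Nefh was also not called without the WT day 3.5 block (0.153) or the NFATc1/ΔS day 3.5 block (0.119). Ccdc63, a coiled-coil protein, had 2.2, 0.5, 0.6 and 0.9 CPM in Th1 and 10.3, 8.3, 8.8 and 10.3 CPM in Th17 (-3.32 ± 0.34, adjusted p = 0.00223, and 0.0094 without the WT day 2.5 block).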
